A study of Mus musculus with 2 samples.

Results

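Prostaglandin synthesis, breakdown and receptor genes were followed in 2 spatial RNA libraries from the mouse skull vault (calvaria). The members were chosen by symbol and are Ptgs1, Ptgs2, Ptges, Ptgds, Ptgis, Ptgdr, Ptger2, Ptger4 and Hpgd. All 9 were found among the 31053 genes of each matrix. Tissue of both groups carried a calvarial bone defect, left free of the collagen/nHA material in Blank and given it in Col_nHA. They were harvested at day 7, frozen in embedding medium and sectioned, with 1 section per group. Strain, age and number of animals are not given in the sources used here. Members were described across barcodes at or above a minimum of UMIs (unique molecular identifiers, the counted RNA molecules) given for each section, which was 37.7% of the median spot in Blank and 33.9% in Col_nHA and kept 45.1% and 49.5% of barcodes. These were 2249 spots with a median of 9733 UMIs in Blank and 2471 spots with a median of 13815 UMIs in Col_nHA. A spot is a small patch of tissue that can hold several cells, so levels describe spots, and fewer cells of a type and less RNA per cell cannot be told apart. CPM (counts scaled to 1000000 UMIs) were taken over the summed spots. With 1 section per group there is no replicate check and no p-value, and every interval is an exact 95% interval of counts that covers counting error only.

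Prostaglandins are short-lived lipid signals made from arachidonic acid that phospholipases free from membranes. The cyclooxygenases encoded by Ptgs1 and Ptgs2 make a common intermediate, and terminal synthases turn it into the separate prostaglandins: Ptges into prostaglandin E, Ptgds into prostaglandin D and Ptgis into prostacyclin. Ptgs1 is expressed at a steady level in many tissues, whereas Ptgs2 is induced by injury and inflammatory signals. Prostaglandin E acts on receptors encoded by Ptger2 and Ptger4 among others, prostaglandin D on the receptor encoded by Ptgdr, and Hpgd encodes the dehydrogenase that inactivates prostaglandins. In bone, prostaglandin E is known to act on both osteoblasts and the formation of osteoclasts. In the brain coverings, Ptgds is an abundant transcript.

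The stretches of 150 bases that precede the annotated starts of 4 members are shown, because Ptgs2 is the inducible gene of the set, Ptgdr had the most localised receptor transcript, and Ptger2 and Ptger4 had their highest levels in the same regions. They are RefSeq sequences on GRCm38.p6, 5′ to 3′ on the gene's strand. Capitals mark matches to the motifs listed after them.
Ptgs2, chr1:150099881-150100030, plus strand: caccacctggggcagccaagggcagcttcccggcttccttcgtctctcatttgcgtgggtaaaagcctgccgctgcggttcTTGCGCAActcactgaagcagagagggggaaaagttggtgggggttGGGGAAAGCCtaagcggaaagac
Ptgdr, chr14:44859376-44859525, minus strand: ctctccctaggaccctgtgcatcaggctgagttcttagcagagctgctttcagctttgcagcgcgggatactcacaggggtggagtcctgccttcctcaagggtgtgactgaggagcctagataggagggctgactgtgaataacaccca
Ptger2, chr14:44987961-44988110, plus strand: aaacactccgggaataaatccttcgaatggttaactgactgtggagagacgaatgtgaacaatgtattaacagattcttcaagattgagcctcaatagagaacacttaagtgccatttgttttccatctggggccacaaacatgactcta
Ptger4, chr15:5244188-5244337, minus strand: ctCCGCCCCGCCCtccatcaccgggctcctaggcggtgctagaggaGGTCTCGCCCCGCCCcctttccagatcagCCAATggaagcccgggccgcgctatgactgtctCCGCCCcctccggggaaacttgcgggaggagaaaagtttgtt
Motifs were searched on both strands in this window of 32851 RefSeq starts. The TATA box was searched for as TATAAA, which 7.57% of windows held, and the CCAAT box by the letters of its name. The E-box was searched for as CACGTG (4.295% of windows), and the core of the cyclic AMP response element as CGTCA (13.3%). The GC box was searched for as GGGCGG and the site of the AP-1 factors as TGANTCA (4.24%). The other motifs were the NF-kB form, which starts with GGG and ends with CC around 5 free bases, and the C/EBP palindrome TTGCGCAA. The C/EBP motif was added after the Ptgs2 window had been read. The Ptgs2 window held TTGCGCAA, from 69 to 62 bases before the start, which 0.113% of all windows held, and 1 NF-kB match, which 35.4% of windows held. The Ptger4 window held 4 GC box matches (28.6% of windows held 1 or more), 1 CCAAT box (24.5%) and 1 NF-kB match that overlaps a GC box; a pair of its GC boxes also overlap. Its GC content was 66%, against 40% for Ptger2 and a median of 54% over all windows. No listed motif matched in the Ptger2 and Ptgdr windows. The windows of Ptgs1, Ptges and Ptgds are not shown because they lie inside longer annotated gene spans. Among windows not shown, NF-kB matched in Ptges and Ptgds, AP-1 in Ptgds, and the GC box in Ptges and Hpgd. A match is a run of letters, not a shown binding site.

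By RefSeq on GRCm38.p6, the assembly behind the mm10 build of the files, all 9 members are protein-coding. Ptgs2 lies on chromosome 1 from 150100031 to 150108234. On chromosome 2 lie Ptgds from 25466709 to 25470110, Ptges from 30889471 to 30931020, Ptgs1 from 36216742 to 36258593 and Ptgis from 167203194 to 167252150. The receptor genes Ptgdr (44851235 to 44859375) and Ptger2 (44988111 to 45003820) are close neighbours on chromosome 14. Ptger4 lies on chromosome 15 from 5233399 to 5244187 and Hpgd on chromosome 8 from 56294552 to 56321046.

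The sections held bone and other tissues. The osteocalcin gene Bglap stood at 578 CPM in the Blank section against 233 in the other, and Alpl, the alkaline phosphatase gene of osteoblasts, at 56.7 and 56.1 CPM. Ibsp, the bone sialoprotein gene, went the other way, at 88.2 and 174 CPM. Choroid plexus markers took 1.2% of UMIs in Blank and 0.00212% in Col_nHA, epidermis markers 0.190% and 0.0871%, and skeletal muscle markers 0.515% and 1.23%. Their part in the section differences was not tested, other than by the settings that leave spots out, given below. All 4992 barcodes were common to both libraries; such barcodes name positions on an array, not cells. Within 10% of the minimum lay 265 barcodes of Blank and 216 of Col_nHA.

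The first comparison asked which members differed in level between Col_nHA and Blank. Ptgs2, Ptgds, Ptgdr and Ptger2 were higher in Col_nHA, Ptgs1, Ptgis and Hpgd were lower, and Ptges and Ptger4 had intervals that span 1. Of the 8 members that reached 10 CPM in a section, 0 were 2-fold or more higher or lower. Among all 9855 genes at that minimum, 1.83% were at least 2-fold higher and 3.40% at least 2-fold lower, 5.23% in all. The counting interval lay above 1 for 3 of the 8 and below 1 for 3, against 35.5% and 30.9% of the 9855 genes, so the members' counts are near the background. Their median log2 ratio was 0.07, against 0.02 for all genes.

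The cyclooxygenase genes stood on opposite sides of 1. Ptgs2 had 275 UMIs in Blank (8.96 CPM, 7.93 to 10.1) and 714 in Col_nHA (17.8 CPM, 16.5 to 19.1), a ratio of Col_nHA over Blank of 1.98 (1.72 to 2.29). Ptgs1 had 729 UMIs in Blank (23.7 CPM, 22.0 to 25.5) and 574 in Col_nHA (14.3 CPM, 13.1 to 15.5), a ratio of 0.601 (0.538 to 0.672). Without the spots rich in skin, muscle, fat, nerve, brain or choroid plexus markers the Ptgs1 ratio was 0.861, while that of Ptgs2 was 2.0. These spots, with over 2% of UMIs in those lists, were 581 in Blank and 340 in Col_nHA. As means of per-spot CPM the ratios of Ptgs1 and Ptgs2 were 0.460 and 2.30, both past 2-fold. With TMM factors or median-of-ratios size factors, which rescale the section totals, Ptgs2 also passed 2-fold, at 2.04 and 2.05.

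Among the terminal synthases, Ptges was nearly level at 46.7 CPM from 1435 UMIs in Blank and 48.3 CPM from 1940 UMIs in Col_nHA, a ratio of 1.03 (0.964 to 1.11). Ptgis had 2444 UMIs in Blank (79.6 CPM) and 2079 in Col_nHA (51.7 CPM), a ratio of 0.650 (0.613 to 0.689). The Ptgis ratio lay between 0.622 and 0.682 under all 10 other settings. Ptgds had 2804 UMIs in Blank (91.3 CPM) and 5627 in Col_nHA (139.97 CPM), a ratio of 1.53 (1.46 to 1.60). This ratio depended on a handful of spots and on which tissues were counted: it was 1.18 with the 1% of spots richest in Ptgds left out, and 5.39 when the spots rich in other tissues were left out.

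The receptor genes were sparse. Ptgdr had 231 UMIs in Blank (7.52 CPM) and 530 in Col_nHA (13.2 CPM), a ratio of 1.75 (1.499 to 2.05). Ptger2 had 95 and 220 UMIs (3.09 and 5.47 CPM), a ratio of 1.77 (1.38 to 2.27), and is the 1 member below 10 CPM in both sections. Ptger4 had 342 and 475 UMIs (11.1 and 11.8 CPM), a ratio of 1.06 (0.921 to 1.22). The breakdown gene Hpgd had 579 UMIs in Blank (18.9 CPM) and 430 in Col_nHA (10.7 CPM), a ratio of 0.567 (0.4995 to 0.644).

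**Figure D1:**
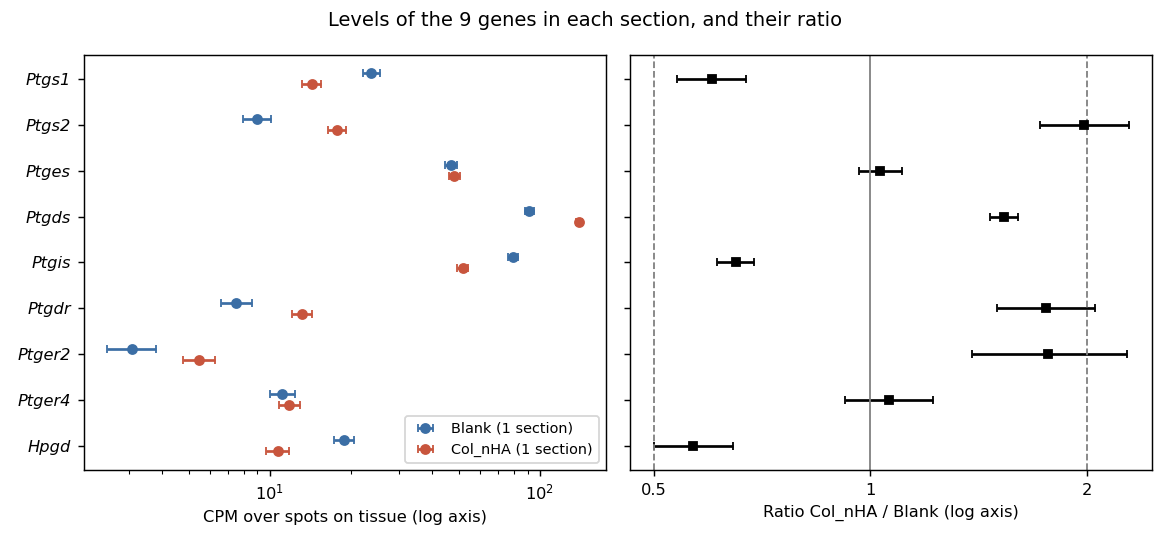
Left, CPM of each gene over spots on tissue (log axis) in the Blank and Col_nHA sections; right, their ratio (log axis) with lines at 0.5, 1 and 2. Bars are exact 95% counting intervals; Ptgs2 lies nearest to 2 at 1.98 and Hpgd nearest to 0.5 at 0.567.

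**Figure D2:**
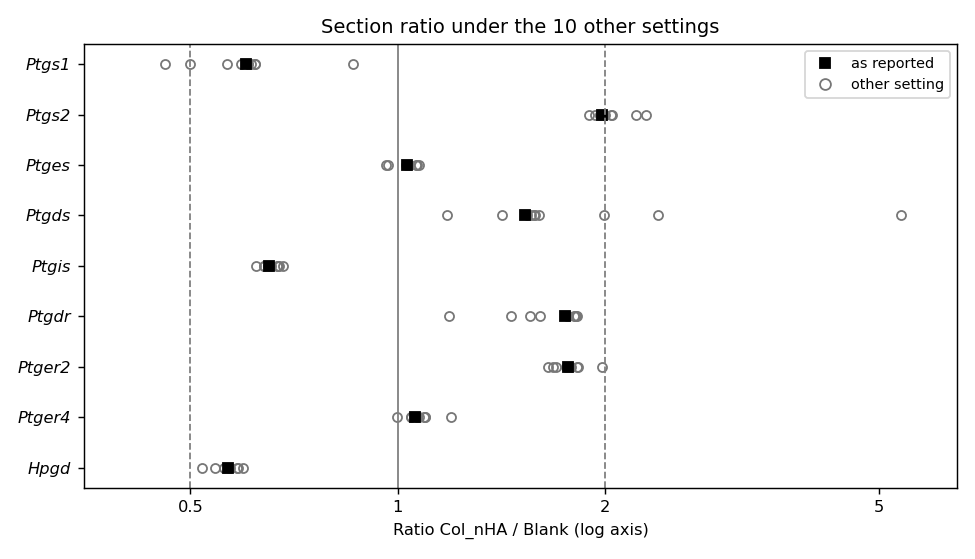
Ratio of Col_nHA over Blank (log axis) for each gene as reported (squares) and under 10 other settings (open circles), with lines at 0.5, 1 and 2. Ptgds spreads from 1.18 to 5.39 and Ptgs2 crosses 2, whereas Ptgis stays between 0.622 and 0.682.

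The next comparison asked which spot profiles held the transcripts. Spots of both sections were clustered together into 16 regions without the 9 members and the 33 other pathway genes described further on, and each region is called by a number and its leading genes. A level is given where a section had at least 50 spots of a region, which gave 18 levels per gene. Only R7, led by Penk, Shisa3 and Cldn11, and R8, led by Bglap, Bglap2 and Ibsp, had 50 spots in each section. In the other 14 regions, section and profile cannot be told apart.

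Ptgs1 was highest in a Blank region rich in skin markers. In R4, led by Defb8, Krt77 and Fa2h, where melanocyte markers took 11.6 and epidermis markers 9.60 times their share over all spots, it stood at 78.2 CPM (69.8 to 87.3), and these 456 spots held 43.2% of the Blank Ptgs1 UMIs. No other level had an interval that reached it. At both other clustering resolutions the highest level was 152.9 CPM, in 212 Blank spots led by the cornified envelope genes Lor, Lce1m and Lce1c. The next was 31.1 CPM (25.4 to 37.6) in R16 of Col_nHA, led by the wound keratin genes Krt6b and Krt6a with Sprr2a3. The 225 Blank spots richest in epidermis markers, taken without clustering, held Ptgs1 at 144 CPM, 6.07 times the section's level, and the 247 such Col_nHA spots at 35.2 CPM, 2.46 times. The Blank spots richest in melanocyte markers held it at 46.7 CPM, 1.97 times. The melanocyte list of 4 genes had only 420 UMIs in Blank and 41 in Col_nHA.

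Ptgs2 was highest in R16 at 39.97 CPM (33.5 to 47.3), and the next 2 levels, 32.3 CPM (26.7 to 38.7) in R13 and 31.2 CPM (27.9 to 34.7) in R10, had intervals that overlap it. R13 was led by Saa3, Arg1 and Cxcl5, genes of acute inflammation and wound response. R10 was led by the smooth muscle gene Cnn1 and by Mmp9 and Acp5, genes of osteoclasts, and osteoclast markers took 2.32 and smooth muscle and pericyte markers 1.74 times their share over all spots there. In the 10% of Col_nHA spots richest in smooth muscle and pericyte markers Ptgs2 stood at 49.9 CPM (44.1 to 56.3), 2.81 times the section's level, whereas in those richest in osteoclast markers it stood at 15.1 CPM (11.9 to 18.9), 0.851 times. In Blank these were 0.706 and 1.09 times. In the Blank spots richest in neutrophil markers Ptgs2 stood at 22.0 CPM (16.9 to 28.1), 2.45 times the section's level and the highest of the 20 marker lists. In the Col_nHA spots richest in neutrophil markers it stood at 36.5 CPM (30.2 to 43.7), 2.05 times and rank 4 among the lists. R16, R13 and R10 are regions of the Col_nHA section. R10 alone held 46.6% of that section's Ptgs2 UMIs in 18.1% of its spots, at a median of 23726 UMIs per spot. Of the 10 Col_nHA spots with most Ptgs2 UMIs, 8 lay in R10, and the highest held 24. In Blank the highest levels were 18.0 CPM (13.4 to 23.8) in R6, led by the troponin genes Tnnc1 and Tnni1 with Myl4, and 15.1 CPM (10.9 to 20.3) in R5, led by Acod1, Clec4e and Cxcl2. At the finer resolution the highest level was 57.6 CPM, in 318 Col_nHA spots led by Il1rl1, Arg1 and Cnn1. The muscle region R11, led by Myh4, held 2 UMIs, 0.550 CPM.

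Both cyclooxygenase genes and Ptges were thus high in R16, where Ptges, the synthase of prostaglandin E, stood at 94.1 CPM (84.1 to 105). Ptges stood at 93.97 CPM (82.1 to 107) in R7 of Col_nHA, an interval that overlaps the highest, and reached 64.8 CPM in R4. In the Blank spots richest in epidermis markers Ptges stood at 90.0 CPM (76.7 to 104.9), which also overlaps the R16 interval. Ptges and Ptgis were spread over many spots: the richest 10% held 45.0% of the Ptges UMIs in Blank and 43.5% in Col_nHA, and 43.9% and 48.5% of those of Ptgis. It was lowest in R11, at 7.98 CPM.

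Ptgds was concentrated in few spots of different kinds in each section. In Col_nHA, R7 held it at 1628 CPM (1577 to 1680), and 142 spots of that region contained 69.6% of the section's Ptgds UMIs. In Blank, R1, led by the choroid plexus genes Ttr, Kl and Enpp2, held it at 1270 CPM (1215 to 1328), and its 123 spots also contained 69.6%. The third level, 134 CPM in R14 of Col_nHA, led by Dlk1, Cfb and Sfrp1, was far lower. A total of 50% of the UMIs lay in 14 spots of Blank and 8 spots of Col_nHA, where the highest spot alone held 1163 UMIs, 20.7% of the total and 3.54% of that spot's RNA. Of the 10 spots richest in Ptgds, 8 lay in R1 in Blank and 9 in R7 in Col_nHA. In the highest Blank spot, with 206 Ptgds UMIs, choroid plexus markers took 35.4% of UMIs, and in the highest Col_nHA spot they took 0.0517%.

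**Figure D3:**
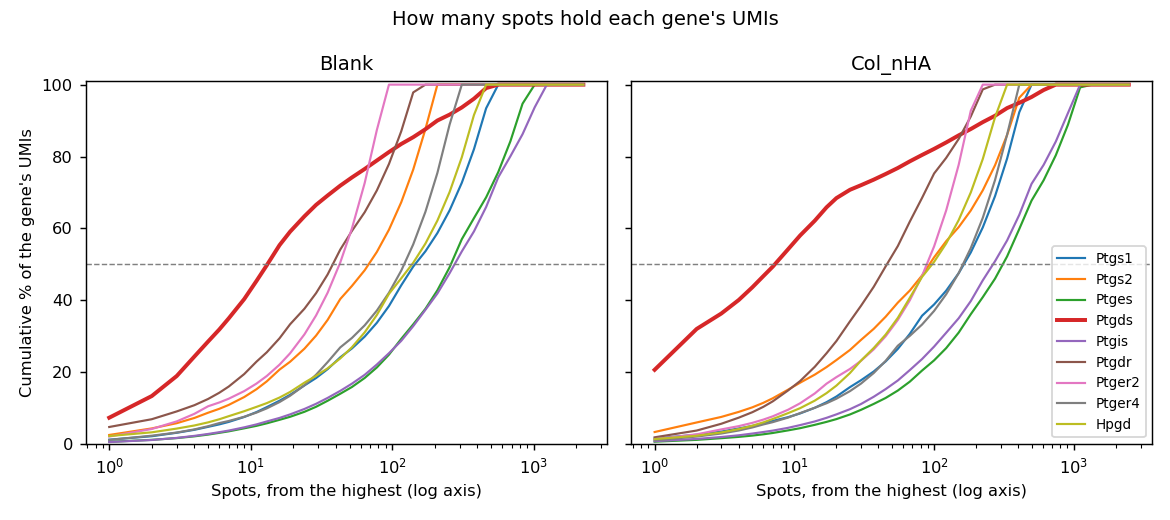
Cumulative percent of each gene's UMIs (vertical axis) held by the given number of spots, ranked from the richest (log axis), in each section. The Ptgds line crosses 50% at 14 spots in Blank and 8 in Col_nHA, whereas Ptges takes 261 and 312 spots and Ptgis 275 and 264.

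Ptgis, the prostacyclin synthase gene, was highest in the bone region of both sections. In R8 it stood at 218 CPM (196 to 242) in Blank against 167 CPM (147 to 190) in Col_nHA, 2.74 and 3.24 times the level of the section. Osteoblast markers took 14.2 times their share over all spots in R8. The third level was 120 CPM (107 to 134) in R14, and the lowest was 21.2 CPM in R15, led by Tmem178, Ly6c2 and Cxcl10. In the spots richest in osteoblast markers, Ptgis stood at 192 CPM in Blank against 112 CPM in Col_nHA, 2.41 and 2.16 times the section's level. In those richest in fibroblast markers it stood at 117 CPM in Blank, 1.47 times. In Col_nHA the fibroblast list gave 110 CPM (100 to 120), 2.12 times. That interval overlaps the one of the osteoblast list there, 100 to 123 CPM, so the lists do not separate in Col_nHA.

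Hpgd shared that region with Ptgis. It stood at 49.4 CPM (39.2 to 61.4) in R8 of Blank and 40.4 CPM (30.5 to 52.5) in R8 of Col_nHA, levels whose intervals overlap. R7 followed, with 29.3 CPM in Blank against 22.9 CPM in Col_nHA, and the lowest level was 3.31 CPM in R13, where Ptgs2 was near its highest. Among spots thinned to 2000 UMIs, Hpgd was found in 3.38% (1.76 to 5.83) of Blank spots with a Ptgis UMI and 3.38% (2.61 to 4.29) of those lacking one. In Col_nHA these shares were 2.34% (0.865 to 5.03) and 2.08% (1.52 to 2.76), and the intervals overlap in both sections.

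Most UMIs of the receptor gene Ptgdr lay in R7. It stood there at 147 CPM (132 to 163) in Col_nHA and 42.7 CPM (36.5 to 49.6) in Blank, and R7 held 66.8% and 74.5% of the sections' Ptgdr UMIs in 5.75% and 10.7% of their spots. The next level was 19.3 CPM in R12, led by Tbx18, Foxc2 and Cx3cl1, and the median of the 18 levels was 2.77 CPM. Brain markers took 4.25 and meninges markers 3.19 times their share over all spots in R7. The brain list of 4 genes had only 503 UMIs in Blank and 506 in Col_nHA. It also took 6.49 times its share in R1 and 4.26 times in the muscle region R11, so it does not single out R7. In the 10% of spots richest in meninges markers, Ptgdr stood at 7.29 times the section's level in Blank and 6.67 times in Col_nHA, the largest such ratio among the 20 marker lists in each section. Its synthase partner Ptgds stood at 1.74 and 6.95 times in the same spots.

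The prostaglandin E receptor genes had another pattern. Ptger4 was highest in R15 at 25.1 CPM (18.7 to 33.0) and R9 at 20.9 CPM (17.1 to 25.2), both of Col_nHA, and 6 levels had intervals that reach the highest. R9 was led by Npy, Spp1 and Gpnmb, and macrophage and monocyte markers took 2.35 times their share there and 2.44 times in R15. Ptger2 had its 2 highest levels in these regions too, 11.8 CPM (7.56 to 17.6) in R15 and 11.5 CPM (8.76 to 14.8) in R9, from 24 and 59 UMIs. The T and NK cell markers took 4.05 times their share in R15 and 3.30 times in R9. That list of 5 genes took only 0.00587% of Col_nHA UMIs. Il7r alone stood at 47.5 CPM in that section and made up most of the list. Which cells held the transcripts was not tested. In the spots richest in macrophage and monocyte markers, Ptger2 stood at 1.72 times the section's level in Blank and 2.14 times in Col_nHA. This list ranked 3 for Ptger2 in Blank, below T and NK cell at 2.15 and platelet and megakaryocyte at 1.81 times, and 2 in Col_nHA. The Blank levels of these lists rest on 22, 16 and 17 UMIs, and their intervals overlap, so their order is not resolved. Ptger4 stood at 1.04 and 1.85 times in the spots richest in macrophage and monocyte markers. In Blank its highest lists were wound epidermis at 1.88 and epidermis at 1.74 times. At the coarser resolution the highest Ptger4 level was in Blank spots led by Defb8 and Cfd, at 17.5 CPM.

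**Figure D4:**
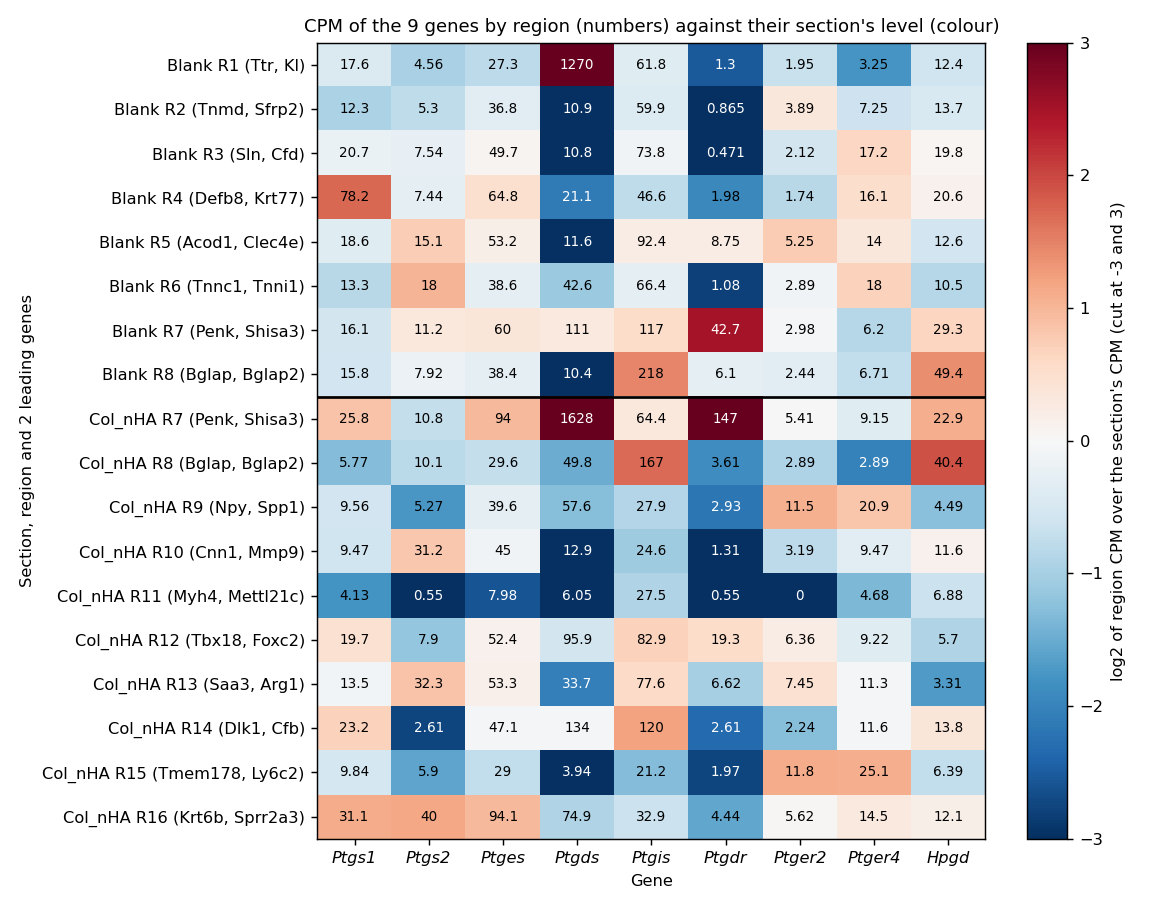
Rows are the region and section combinations with at least 50 spots, named by their 2 top leading genes, and columns are the 9 genes. Numbers are CPM and colour is the log2 of that level over the section's level; in CPM Ptgdr, Ptgis and Hpgd peak in R7, R8 and R8 of each section, Ptgds peaks in R1 in Blank and in R7 in Col_nHA, and over both sections Ptgs1 peaks in R4 and Ptgs2 in R16.

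The regions held by both sections allowed a comparison between spots of like profile, still with 1 section each. In R7, Ptgds was 14.6 (13.2 to 16.1) times and Ptgdr 3.45 (2.87 to 4.16) times as abundant in Col_nHA as in Blank. Without the 10 spots richest in each gene, Ptgds stood at 380 CPM in Col_nHA against 43.0 in Blank, and Ptgdr at 125 against 32.2 CPM. In R7, 61.3% of Col_nHA and 40.7% of Blank spots had a Ptgds UMI, at median depths of 16015 and 12419 UMIs. Meninges markers took 0.0848% of R7 UMIs in Col_nHA and 0.0570% in Blank, choroid plexus markers 0.00507% and 0.0492%, and brain markers 0.00686% and 0.00556%. The part of these shares in the difference was not tested.

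Also in R7, Ptges had a ratio of 1.57 (1.30 to 1.88) and Ptgis one of 0.550 (0.456 to 0.661). For Ptgs2 the ratio there was 0.968 (0.573 to 1.60), from 45 and 26 UMIs. In R8, Ptgis again stood below 1, at 0.767 (0.647 to 0.907), and Ptgds above it, at 4.80 (2.79 to 8.72), from 17 and 69 UMIs. For Hpgd the intervals span 1 in both, at 0.781 (0.557 to 1.08) in R7 and 0.818 (0.571 to 1.16) in R8. Ptgs2 in R8 stood at 1.27 (0.556 to 2.95) from 13 and 14 UMIs, too few to show a 2-fold difference. The ratio of the whole sections, 1.98, lies above the Ptgs2 interval in R7 and inside that in R8, and the regions with its highest levels were held almost wholly by 1 section.

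**Figure D5:**
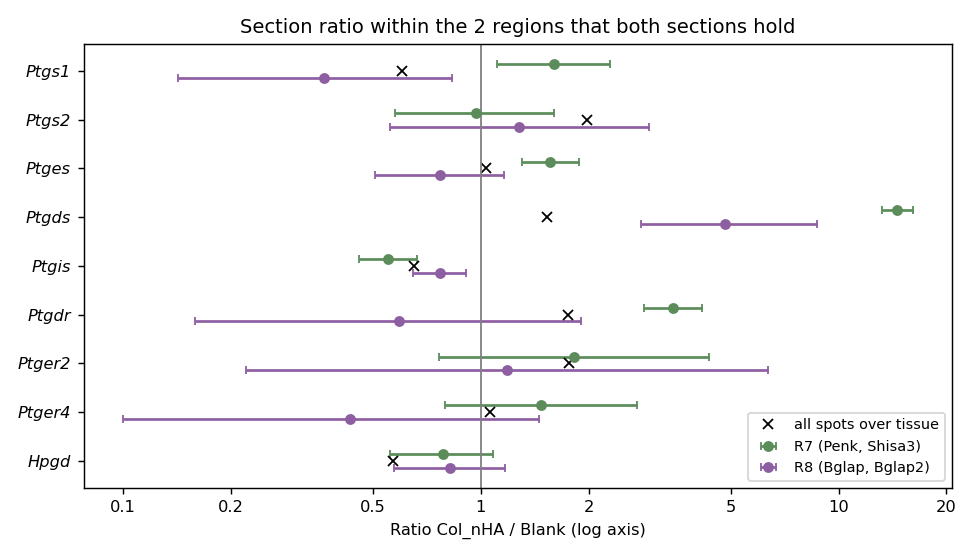
Ratio of Col_nHA over Blank (log axis) for each gene within R7 and R8, with exact 95% counting intervals, and over all spots on tissue (crosses). Ptgds lies at 14.6 in R7 and 4.80 in R8, and Ptgis lies below 1 in both.

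For each member, the genes most like it across spots were sought among those with at least 10 CPM in both sections, by Pearson r of log-scaled counts, taking the lower r of the sections. These are descriptions of spots that share a library and its depth. Ptgdr was most like Col6a5 (r of 0.42 in Blank over 2249 spots and 0.55 in Col_nHA over 2471), Cldn11 (0.41 and 0.54) and Penk (0.40 and 0.54). For Ptgds they were Igfbp2 (0.33 and 0.35), Clu (0.44 and 0.28) and Stra6 (0.26 and 0.28). Ptgis was most like Sparc (0.24 and 0.28), an abundant bone matrix gene, Col11a2 (0.26 and 0.24) and Mgp (0.23 and 0.24). No gene reached 0.2 in both sections for the other 6 members, so none is named for them.

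Pairs of members were also compared within spots. Of 36 pairs, the pair of Ptgds and its receptor gene Ptgdr had the highest correlation in each section, 0.12 in Blank and 0.23 in Col_nHA. Next were Ptgs1 with Ptges at 0.10 in Blank and Ptges with Ptgdr at 0.13 in Col_nHA. The shares that follow cover only some of the 36 pairs and are not a count over all of them. Among spots thinned to 2000 UMIs, Ptgds was found in 22.0% (12.3 to 34.7) of the 59 Ptgdr-holding spots of Col_nHA and in 7.75% (6.72 to 8.89) of its others. In Blank the shares were 19.4% (8.19 to 36.02) of 36 spots and 7.91% (6.82 to 9.11), intervals that overlap. The same 36 Blank spots held Ptges in 22.2% (10.1 to 39.2) of cases against 8.81% (7.66 to 10.07) of the others, and the 59 Col_nHA spots in 13.6% (6.04 to 25.0) against 9.04% (7.92 to 10.3). The 200 Ptgds-holding spots of Col_nHA held Ptges in 16.0% (11.21 to 21.8) of cases against 8.54% (7.42 to 9.77) of the others. They held Ptgis in 16.0% (11.21 to 21.8) against 9.86% (8.67 to 11.16). In Blank neither share was higher with Ptgds, at 7.69% against 9.14% for Ptges and 12.1% against 16.1% for Ptgis. For Ptgs2 and the synthase gene Ptges, the shares were 16.3% (6.81 to 30.7) of 43 Blank spots against 8.88%, and 6.80% (2.78 to 13.5) of 103 Col_nHA spots against 9.25%, with intervals that overlap in both sections.

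Shares of spots with a UMI were low at equal depth. At 2000 UMIs per spot Ptgs2 was found in 1.91% (1.39 to 2.57) of spots in Blank and 4.17% (3.41 to 5.03) in Col_nHA, where unthinned spots gave 9.16% and 17.5%. For Ptgs1 these were 5.51% (4.61 to 6.54) and 2.63% (2.04 to 3.34), against 22.7% and 18.3%. Ptgds was found in 8.09% of spots in each section, against 21.7% and 28.0% without thinning, although its CPM differed. Barcodes below the UMI minimum, at 500 UMIs, held Ptgis in 4.302% of cases in Blank, where spots over tissue at that depth gave 3.82%, and in 4.28% in Col_nHA, where they gave 2.95%. Over the 9 genes and both sections, the share was higher below the minimum in 9 of 18 cases, 6 of them in Blank, and the intervals overlapped in all 18. Such shares rest on few barcodes, as with 2 of 2335 for Ptger2 in Col_nHA, so the overlap does not show equal levels. Ptgdr in Blank stood at 0.743% below the minimum against 0.267% over tissue, and Ptger4 in Blank at 0.235% against 0.623%. In Col_nHA Ptgds stood at 4.15% against 3.04% and Ptgs2 at 0.814% against 1.13%. No image or position was used, so whether barcodes below the minimum held tissue is not known. A lone UMI of these genes is not read here as expression in its spot, which was not tested. The median depth of the barcodes below the minimum was 1248 UMIs in Blank and 1760 in Col_nHA. Without thinning, some levels did differ. Ptgds in Blank stood at 49.97 CPM (43.4 to 57.2) below the minimum against 91.3 CPM (88.0 to 94.8) over tissue. Ptgdr in Blank stood at 14.4 CPM (11.0 to 18.6) against 7.52 CPM (6.58 to 8.56), and Ptgis in Col_nHA at 75.4 CPM (67.9 to 83.4) against 51.7 CPM (49.5 to 54.0).

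Other genes of prostaglandin and leukotriene metabolism differed less than 2-fold where they were measured. Of 34 listed symbols 33 were found, 18 reached 10 CPM in a section, and 0 of these were at least 2-fold higher or lower, beside 1.83% and 3.40% of all genes. Their median log2 ratio was 0.02. Ltb4r1, a leukotriene receptor gene, was nearest to 2-fold at 1.99 (1.70 to 2.34), resting on 215 Blank and 560 Col_nHA UMIs; it is named for its size and lies outside the naming rule. Upstream of the members, the phospholipase gene Pla2g4a stood at 1.16 (1.05 to 1.29), likewise named after its value was seen. The 6 most abundant were Ptges3 at a ratio of 1.03 (132 and 136 CPM), Akr1b3 at 1.19 (113 and 135 CPM), Alox5ap at 1.24 (103 and 128 CPM), Akr1b8 at 1.43 (55.5 and 79.6 CPM), Lta4h at 0.970 (67.3 and 65.3 CPM) and Ptgr1 at 0.948 (43.2 and 41.0 CPM). Ptges3 encodes a constitutive prostaglandin E synthase that is also a chaperone partner, and Alox5ap and Lta4h serve leukotriene synthesis. Of 15 genes below the minimum, 5 were at least 2-fold lower in Col_nHA with intervals below 1, against 12.9% of the 10714 genes below it with 1 UMI or more in the 2 sections together. With 100 UMIs or more together these were 5 of 12 pathway genes, against 12.1% of 3627 genes. They are named after their values were seen: Pla2g5 (143 and 22 UMIs), Alox12b (89 and 15), Aloxe3 (91 and 24), Ptger3 (149 and 44) and Pla2g2e (82 and 42). Alox12b and Aloxe3 are lipoxygenase genes of the epidermis.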

How the data were processed

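RNA was counted per spot in 2 sections, Blank and Col_nHA. The values are UMI counts as deposited, one per gene and barcode, unnormalized and with no tissue filter. Space Ranger and the mm10 build are named in the submitters' processing notes, without a version, and the file headers name Cell Ranger 4. The labels' extraction text describes a droplet single-cell kit, while the description names a spatial assay.

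The members and lists were chosen with earlier results of these data known. Spots over tissue were barcodes at or above the UMI minimum of each section, in all 30705849 and 40202268 UMIs. CPM came from each section's summed counts. Ratios have exact conditional binomial, levels exact Poisson and shares Clopper-Pearson 95% intervals, which cover counting error only. Spots were thinned to 2000 UMIs, with 0 spots left out, or to 500, with 2557 of 2743 Blank and 2335 of 2521 Col_nHA barcodes below the minimum deep enough. Regions came from 10000-count scaling, 2000 variable genes, 30 components, 15 neighbours and Leiden clustering at resolution 0.6, without batch integration; leading genes had at least 50 CPM. Doublets do not apply to spots. No image or spot position was used. Named genes were the members, the 6 most abundant pathway genes and any at least 2-fold different at 10 CPM, up to 3 genes like each member with r of at least 0.2 in both sections, and the 3 leading genes of a region. The listed symbol Prxl2b was not matched; the files list that gene under the older symbol Fam213b, also listed. Alternatives were other UMI minimums, scalings, CPM minimums, thinning depths and resolutions, and leaving spots out. On simulated data with 9469 genes, 95.8% of intervals held the true ratio, and 100% of 2.5-fold and 0% of 1.5-fold changes were counted as 2-fold. Both simulated sections were Poisson counts from a shared profile, the error the intervals assume. The simulation therefore checks the calculation only and does not cover spread between sections or spots. The software was Python 3.11.15, scipy 1.17.1, scanpy 1.11.5, igraph 0.11.9 and R 4.3.3 with edgeR 4.0.16, used for TMM factors alone.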

Additional observations from a re-analysis of the deposited data

Results flagged for a closer look

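The Ptgs1 ratio of Col_nHA over Blank went opposite ways in the regions that both sections held. In R7, led by Penk, it was 1.60 (1.11 to 2.30), resting on 65 Blank and 62 Col_nHA UMIs, and in R8, led by Bglap, it was 0.364 (0.143 to 0.828), from 26 and 8 UMIs. The difference between the regions was not tested, and each rests on 1 section per group.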

How the results depend on the processing

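No member was at least 2-fold higher with the settings reported, but Ptgs2 lay close to that threshold and 1 was counted with TMM factors (Ptgs2, 2.04), with median-of-ratios size factors (Ptgs2, 2.05), as a mean of per-spot CPM (Ptgs2, 2.30) and without spots rich in other tissues (Ptgds, 5.39). Of all genes 2.03%, 2.04%, 2.06% and 1.51% were higher under these settings. Without the regions led by Ttr or rich in meninges markers (R1, R7 and R12), which was chosen after seeing the data, 2 were higher (Ptgs2, 2.22, and Ptgds, 2.39) and 1 was lower (Ptgs1, 0.4998), beside 1.79% and 3.60% of all genes. The mean of per-spot CPM also gave 1 lower (Ptgs1, 0.460), beside 4.34% of all genes. With no CPM minimum 7 other pathway genes were at least 2-fold lower, of which 2, Alox15 and Ptgdr2, had at most 4 UMIs in a section, beside 16.0% of 20569 genes with a UMI. Under the 10 other settings Ptgs1, Ptgs2, Ptgds, Ptgis, Ptgdr, Ptger2 and Hpgd kept their side of 1, whereas Ptges ranged from 0.962 to 1.08 and Ptger4 from 0.997 to 1.197. Ptgds ranged from 1.18 to 5.39 and Ptgdr from 1.19 to 1.82. The cause of these changes was not tested. Leaving out a replicate was not possible with 1 section per group. No paired analysis was possible because each group has 1 section. Depth limits Ptger2 and Ptgdr most, with 95 and 231 UMIs in Blank.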
